A study of Mus musculus with 6 samples.

Results

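The 10 genes described here cover the activation of hepatic stellate cells and the TGF beta ligands in mouse liver. They were taken by symbol from the deposited gene table and transcript files: Reln, Hgf and Des as markers of the quiescent cell, Acta2, Lum and Pdgfrb as markers of the activated cell, Pdgfra as a further growth factor receptor, and Tgfb1, Tgfb2 and Tgfb3 as the ligands. Of 18453 genes with any count in the 6 livers, 13431 had enough counts to be tested, and all 10 were among them.

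All 6 mice were Mettl14f/f males, so the floxed Mettl14 alleles were present in both groups. HFD feeding started at 8 weeks of age, and after 10 weeks of HFD the mice were injected through the tail vein with AAV8-TBG-GFP (control, n = 3) or AAV8-TBG-Cre (n = 3). Livers were harvested 8 weeks later. The sample labels shorten the vectors to AAV-TBG-GFP and AAV-TBG-Cre and call the genotypes WT and METTL14 KO. TBG, the thyroxine-binding globulin promoter, drives expression in hepatocytes, so stellate cells were not the cells the vector targets. The comparison asks how the stellate cell and TGF beta transcripts of the whole liver differed between the vectors.

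Hepatic stellate cells lie between hepatocytes and the sinusoidal endothelium and store vitamin A. In injured liver they can turn into myofibroblasts, which lose quiescence markers, respond to PDGF and TGF beta, and secrete fibrillar collagen and small proteoglycans. TGF beta is secreted in a latent complex and is released by integrins, thrombospondin or proteases before it binds its receptors and signals through SMAD proteins. In bulk tissue, fewer cells of a type and less RNA per cell cannot be told apart, and the same holds for more cells and more RNA per cell.

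Upstream sequence is shown for Acta2, the activation marker whose groups overlapped, and for Tgfb1 and Tgfb2, the ligands with the smallest and the largest fold change of the 3. Each run is the 250 bases before the start listed in the RefSeq promoter table (build GRCm38.p6), written 5′ to 3′ on the gene's own strand. Capitals mark CC and GG spaced 6 bases apart, the frame of the CArG box bound by serum response factor, and CAGAC or its reverse complement GTCTG, a core of SMAD binding elements. In these 3 windows no match to one motif overlaps a match to the other.
Acta2 (chr19:34255374-34255623, minus strand): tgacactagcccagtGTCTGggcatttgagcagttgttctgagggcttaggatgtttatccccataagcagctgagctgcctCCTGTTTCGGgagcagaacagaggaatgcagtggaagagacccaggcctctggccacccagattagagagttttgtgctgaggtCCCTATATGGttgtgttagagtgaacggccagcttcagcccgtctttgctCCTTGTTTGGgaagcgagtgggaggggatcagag
Tgfb1 (chr7:25686752-25687001, plus strand): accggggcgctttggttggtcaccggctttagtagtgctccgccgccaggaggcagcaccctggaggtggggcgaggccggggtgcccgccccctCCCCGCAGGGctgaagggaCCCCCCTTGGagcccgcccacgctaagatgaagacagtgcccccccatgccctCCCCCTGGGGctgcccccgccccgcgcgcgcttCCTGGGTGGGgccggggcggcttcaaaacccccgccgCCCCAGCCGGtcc
Tgfb2 (chr1:186705990-186706239, minus strand): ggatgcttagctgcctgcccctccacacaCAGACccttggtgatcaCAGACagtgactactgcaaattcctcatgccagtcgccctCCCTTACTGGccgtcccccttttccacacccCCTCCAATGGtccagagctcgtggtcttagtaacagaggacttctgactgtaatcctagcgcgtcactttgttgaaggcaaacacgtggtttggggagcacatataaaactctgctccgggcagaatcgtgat

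The Acta2 window held 3 matches to the spaced CC and GG, the middle one, CCCTATATGG, beginning 84 bases before the start, and 1 match to GTCTG. The Tgfb1 window held 5 matches to the spaced CC and GG and 0 to CAGAC or GTCTG, and the Tgfb2 window held 2 of each. These letters are common: on both strands, 67.1% of all 32851 windows of this length held the spaced CC and GG and 42.2% held CAGAC or GTCTG. The full CArG box, with A or T alone between CC and GG, occurred in 1.47% of the windows and in 0 of these 3. The start in the promoter table lies inside the longer gene span that RefSeq gives for Acta2 and Tgfb2, which therefore have other starts. Windows of Lum, Tgfb3 and Pdgfrb are not shown.

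The libraries held between 20356459 and 21010524 expected counts, which are estimated fragment counts summed per gene. Levels are given as CPM, counts scaled by library size after edgeR's TMM normalization, and folds compare AAV8-TBG-Cre with AAV8-TBG-GFP. Genes are called higher or lower at the threshold of the study, an unadjusted p under 0.05 in edgeR's quasi-likelihood test and a change of at least 1.2-fold, and adjusted p-values (Benjamini-Hochberg over 13431 genes) are given for the 10 genes and for others where stated. An exact two-sided permutation test with 3 mice per group cannot go below 0.1. Mettl14 was 6.30, 6.43 and 5.81 CPM in control livers and 4.96, 5.38 and 4.86 CPM in the livers labelled AAV8-TBG-Cre, without overlap. Its log2 fold change was -0.29 (SE 0.15, adjusted p = 0.337 from edgeR), so the targeted gene did not pass the test. Counts summed over the gene cannot show whether a floxed part of it was lost, so they do not check the labels. The paper reports less METTL14 protein in livers given AAV8-TBG-Cre. Hepatocyte Alb lay between 54610 and 80790 CPM, and Lrat, the vitamin A esterifying enzyme of stellate cells, between 4.96 and 12.5 CPM.

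Tgfb2, Tgfb3, Lum, Pdgfrb and Pdgfra were higher in AAV8-TBG-Cre livers at the unadjusted threshold, by 4.87-, 4.68-, 3.35-, 2.05- and 1.90-fold, and each AAV8-TBG-Cre liver lay above each control liver. Reln, Hgf, Des, Acta2 and Tgfb1 did not pass it, and their groups overlapped. Thus 5 of 10 genes were higher, against 12.0% of all tested genes, and 0 were lower, against 8.41%. The groups did not overlap, with AAV8-TBG-Cre above, in 5 of 10 genes, against 14.0% of all tested genes. For Tgfb2 and Tgfb3, not every control reached the count filter for testing. They passed it through the AAV8-TBG-Cre livers, where they were high. As they belong to the 10 genes, their folds and p-values are given, with that limit. At an adjusted p under 0.05, edgeR called 0 of the 10 genes, against 0.931% of all tested genes. DESeq2 called 4 at that level (Tgfb2, Tgfb3, Lum and Pdgfrb), against 7.44% of the genes it tested. On simulated counts 18.34% of its calls were false, against 6.6% for edgeR. That simulation used edgeR's dispersions and had far fewer changed genes than passed the unadjusted threshold here. Its false shares therefore do not carry over to the calls in these livers. Limma on log2(FPKM + 1) called 0 of the 9 it tested, against 0.181% of all genes.

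**Figure D1:**
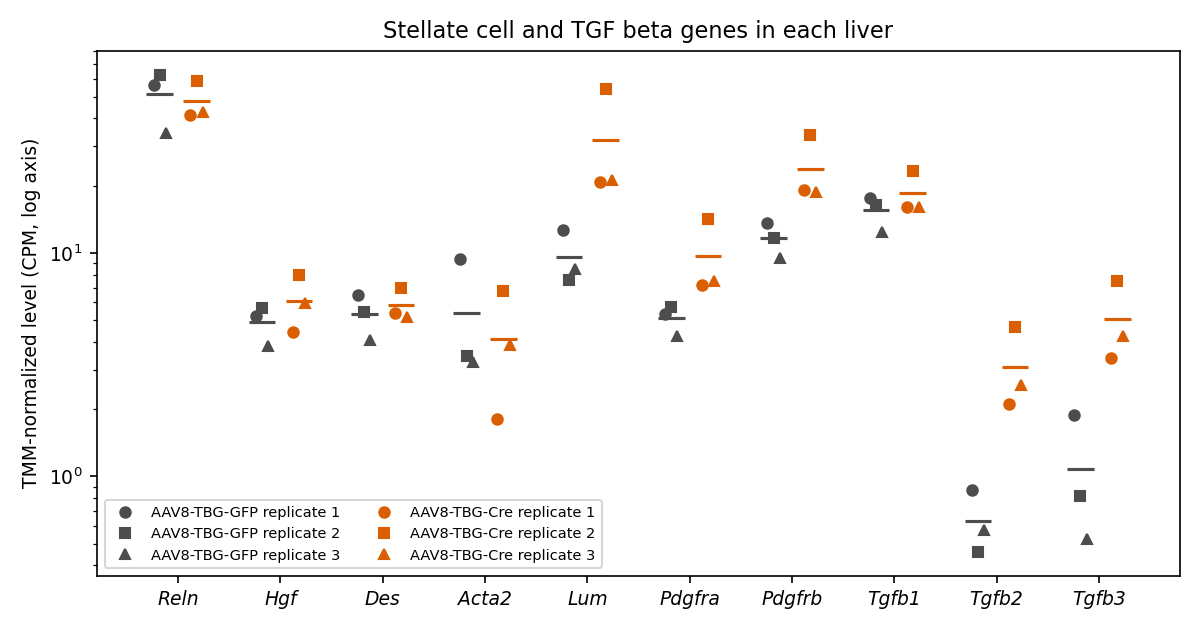
Level of each of the 10 genes in each liver (TMM-normalized CPM, log axis), with 1 symbol per replicate, AAV8-TBG-GFP in grey, AAV8-TBG-Cre in orange, and group means as horizontal lines (n = 3 mice per group). The groups separate for Lum, Pdgfra, Pdgfrb, Tgfb2 and Tgfb3 and overlap for the other genes, and AAV8-TBG-Cre replicate 2 is the highest liver for Lum at 54.2 CPM.

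Among the quiescence markers, Reln encodes reelin, a secreted glycoprotein that stellate cells make in the liver. Reln was 56.6, 62.9 and 34.6 CPM in AAV8-TBG-GFP livers and 41.5, 58.8 and 42.9 CPM in AAV8-TBG-Cre livers. Replicate 3 was the lowest control and replicate 2 the highest AAV8-TBG-Cre liver, and all 3 AAV8-TBG-Cre values fell inside the control range. Reln had a log2 fold change of -0.10 (SE 0.24, adjusted p = 0.837 from edgeR), and its sign turned on the FPKM scale of limma (0.070), where the median of all genes was 0.112.

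Hgf, the hepatocyte growth factor that acts on MET in hepatocytes, was 5.23, 5.66 and 3.82 CPM in controls and 4.44, 7.93 and 5.97 CPM in AAV8-TBG-Cre livers. Replicates 2 and 3 lay above all controls and replicate 1 lay among them. Hgf had a log2 fold change of 0.32 (SE 0.26, adjusted p = 0.531 from edgeR). Hgf counts were divided among 5 transcripts, with the transcript of 2645 bases carrying 57.1% of them over all libraries. The split moved between libraries, and that transcript's share ran from 20.4% in AAV8-TBG-GFP replicate 3 to 73.0% in AAV8-TBG-GFP replicate 2, so only the gene sum is compared.

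Des encodes desmin, an intermediate filament of stellate and smooth muscle cells. Des was 6.45, 5.46 and 4.08 CPM in controls and 5.39, 6.94 and 5.15 CPM in AAV8-TBG-Cre livers. The highest liver was AAV8-TBG-Cre replicate 2, and the other AAV8-TBG-Cre livers lay within the control range. Des had a log2 fold change of 0.13 (SE 0.22, adjusted p = 0.784 from edgeR).

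Acta2 encodes smooth muscle alpha actin, the usual marker of the contractile myofibroblast. Acta2 was 9.40, 3.47 and 3.25 CPM in controls and 1.81, 6.74 and 3.85 CPM in AAV8-TBG-Cre livers. The highest liver was a control and the lowest an AAV8-TBG-Cre liver, with the other 4 mixed between them. Acta2 had a log2 fold change of -0.37 (SE 0.55, adjusted p = 0.748 from edgeR, exact permutation p = 0.7), and without AAV8-TBG-GFP replicate 1 it was 0.30. Acta2 has 1 transcript in the files, yet its estimates were not whole (185.44 in AAV8-TBG-GFP replicate 1, for example), so some fragments were shared with transcripts of other genes and its level is uncertain.

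Lum encodes lumican, a small leucine-rich proteoglycan that binds collagen fibrils. Lum was 12.7, 7.60 and 8.48 CPM in controls and 20.7, 54.2 and 21.3 CPM in AAV8-TBG-Cre livers. AAV8-TBG-Cre replicates 1 and 3 lay close together and replicate 2 lay far above both. Lum had a log2 fold change of 1.74 (SE 0.41, unadjusted p = 0.00298, adjusted p = 0.0789 from edgeR, exact permutation p = 0.1). With AAV8-TBG-Cre replicate 2 left out it was 1.13, with an adjusted p of 0.104 from edgeR.

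Pdgfrb, the receptor through which PDGF drives stellate cell proliferation and migration, was 13.7, 11.7 and 9.48 CPM in controls and 19.1, 33.7 and 18.7 CPM in AAV8-TBG-Cre livers. The lowest AAV8-TBG-Cre liver lay above the highest control. Pdgfrb had a log2 fold change of 1.04 (SE 0.26, unadjusted p = 0.00402, adjusted p = 0.0854 from edgeR, exact permutation p = 0.1). Pdgfra, the related receptor found on stellate cells and other fibroblasts, was 5.34, 5.71 and 4.24 CPM in controls and 7.21, 14.3 and 7.51 CPM in AAV8-TBG-Cre livers. Here too the groups were apart, with AAV8-TBG-Cre replicate 2 the highest. Pdgfra had a log2 fold change of 0.92 (SE 0.29, unadjusted p = 0.0142, adjusted p = 0.139 from edgeR, exact permutation p = 0.1). Leaving out AAV8-TBG-Cre replicate 2 gave 0.70 for Pdgfrb and 0.52 for Pdgfra, and without AAV8-TBG-GFP replicate 3 Pdgfra no longer passed the unadjusted threshold (log2 fold change 0.80). Each receptor has 2 transcripts of nearly the same length in the files. In AAV8-TBG-GFP replicate 3 all counts of both genes went to the transcript that held little or none in most other livers, so transcripts were summed here as well.

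**Figure D2:**
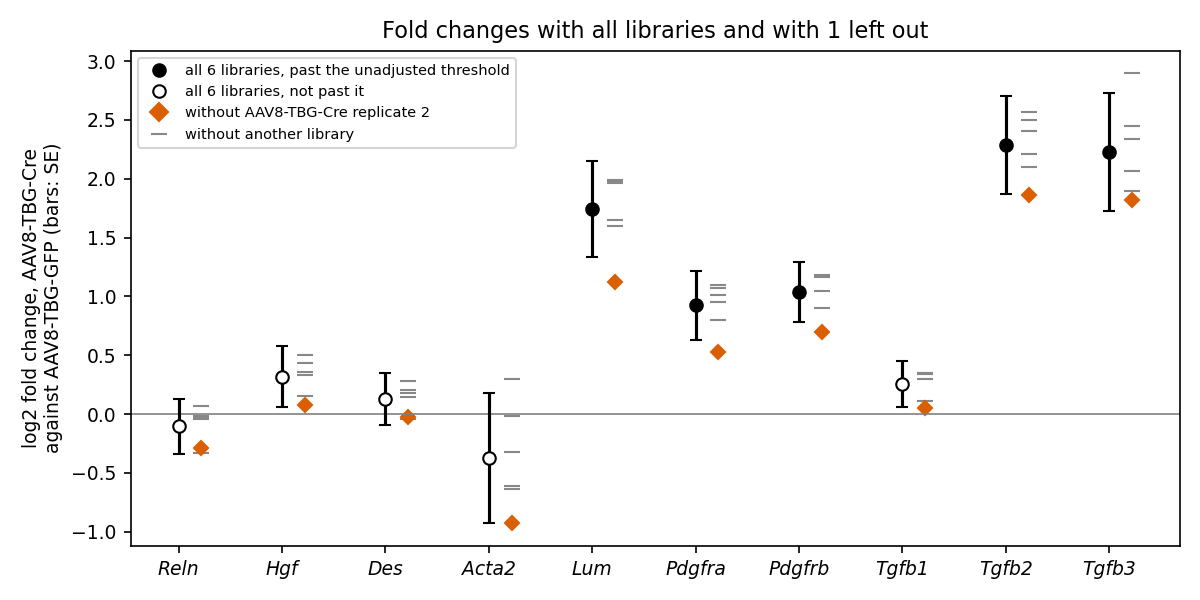
Log2 fold change of the 10 genes in AAV8-TBG-Cre livers relative to AAV8-TBG-GFP livers from edgeR, with SE as bars (n = 3 mice per group), filled circles for genes past the unadjusted threshold, orange diamonds for the fit without AAV8-TBG-Cre replicate 2 and grey ticks for the fits without another library. Lum falls from 1.74 to 1.13 without that liver, and Acta2 lies on both sides of 0.

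Tgfb1, the main TGF beta ligand of macrophages and stellate cells, was 17.6, 16.4 and 12.4 CPM in controls and 16.0, 23.3 and 16.1 CPM in AAV8-TBG-Cre livers. AAV8-TBG-Cre replicate 2 was the highest, and the other AAV8-TBG-Cre livers lay within the control range. Tgfb1 had a log2 fold change of 0.25 (SE 0.20, adjusted p = 0.506 from edgeR).

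Tgfb2, a ligand that binds its type II receptor poorly without betaglycan, was 0.86, 0.46 and 0.58 CPM in controls and 2.10, 4.64 and 2.55 CPM in AAV8-TBG-Cre livers. These levels rest on 17, 9 and 11 counts against 44, 113 and 53 counts. Every AAV8-TBG-Cre liver was above every control, and the control counts are low enough for counting error to matter. In AAV8-TBG-GFP replicate 2 the level fell below the count filter, so Tgfb2 was tested through the AAV8-TBG-Cre livers, where it was high. Tgfb2 had a log2 fold change of 2.28 (SE 0.42, unadjusted p = 0.000684, adjusted p = 0.0552 from edgeR, exact permutation p = 0.1), the smallest p of the 10 genes.

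Tgfb3, the third ligand, was 1.88, 0.82 and 0.52 CPM in controls (37, 16 and 10 counts) and 3.39, 7.52 and 4.24 CPM in AAV8-TBG-Cre livers (71, 183 and 88 counts). The controls spread more than those of Tgfb2, with replicate 1 the highest, and still lay below all AAV8-TBG-Cre livers. Replicate 3 of the controls fell below the count filter, so Tgfb3 too was tested through the AAV8-TBG-Cre livers. Tgfb3 had a log2 fold change of 2.23 (SE 0.50, unadjusted p = 0.00233, adjusted p = 0.0721 from edgeR, exact permutation p = 0.1). With AAV8-TBG-Cre replicate 2 left out the changes were 1.86 for Tgfb2 and 1.82 for Tgfb3.

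FPKM, which also scales by transcript length, allows levels of different genes to be compared. In controls the mean FPKM fell in the order Tgfb1 (6.67), Lum (4.36), Reln (4.09), Pdgfrb (2.00), Acta2 (1.98), Hgf (1.74), Des (1.64), Pdgfra (0.727), Tgfb3 (0.300) and Tgfb2 (0.113). With AAV8-TBG-Cre, Lum had the highest mean FPKM at 17.0 (10.1 without AAV8-TBG-Cre replicate 2), followed by Tgfb1 at 9.05 (7.35 without it), Pdgfrb at 4.72 and Reln at 4.32, and Tgfb2 remained the lowest at 0.653. The FPKM of Tgfb2 and Tgfb3 stayed below that of Tgfb1 in each liver.

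Tgfb1 made up 91.8%, 95.8% and 95.6% of the summed FPKM of the 3 ligands in controls and 84.0%, 77.4% and 80.9% in AAV8-TBG-Cre livers. The share was lower in each AAV8-TBG-Cre liver than in each control (94.4% ± 2.23 against 80.8% ± 3.30, SD, n = 3 per group, exact permutation p = 0.1, the smallest possible). Lum over Reln, an activated over a quiescent marker on the FPKM scale, was 1.28, 0.691 and 1.40 in controls and 2.85, 5.27 and 2.84 in AAV8-TBG-Cre livers, again without overlap. Acta2 over Lum went the other way, at 0.597, 0.366 and 0.307 against 0.0709, 0.1003 and 0.145. Pdgfrb over Pdgfra did overlap, at 3.09, 2.46 and 2.72 against 3.21, 2.86 and 3.01 (exact permutation p = 0.3). These ratios were chosen after the values of the genes were seen.

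**Figure D3:**
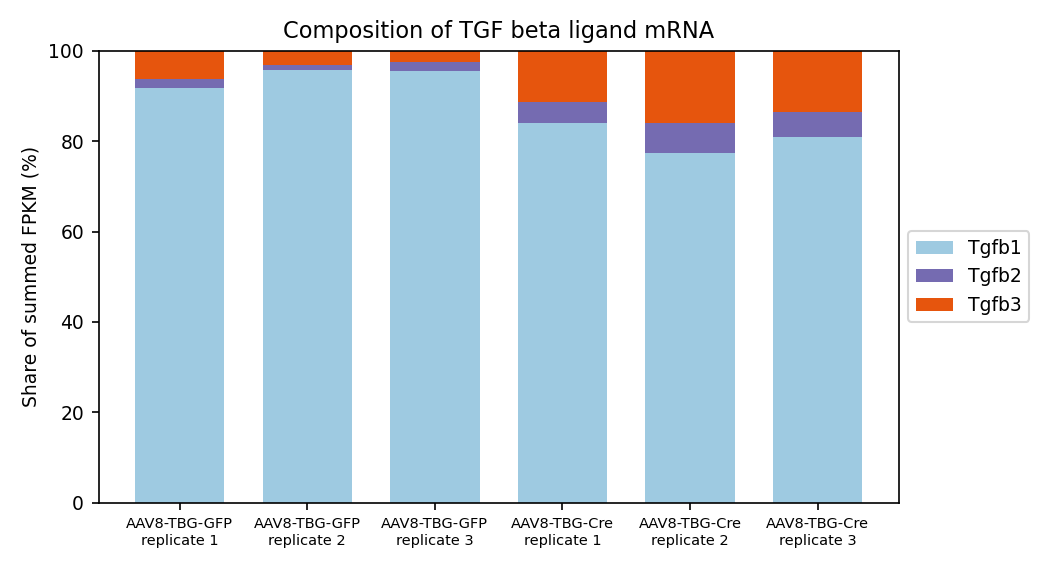
Share of Tgfb1, Tgfb2 and Tgfb3 in the summed FPKM of the 3 ligands (percent, stacked to 100) in each of the 6 livers. Tgfb1 takes 91.8% to 95.8% in AAV8-TBG-GFP livers and 77.4% to 84.0% in AAV8-TBG-Cre livers.

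Over the 6 livers, Lum followed Tgfb2 (Pearson r of log2(CPM + 1) 0.984) and Pdgfrb (0.982), and Tgfb2 followed Tgfb3 (0.977), while r with Lum was 0.231 for Acta2 and 0.175 for Reln. These values describe 6 libraries that share the vector groups and carry no test. Among 11428 other genes, those most like Acta2 were Myl9 (r = 0.974), Tmem79 (0.966) and Gorab (0.966). Myl9 encodes a regulatory myosin light chain of smooth muscle. Those most like Lum were Fkbp10 (0.999), a collagen chaperone, Tmsb10 (0.996) and Prr15l (0.996). Hk2 (0.990), Adgre5 (0.988) and Fli1 (0.988) were most like Tgfb1, and Slc26a2 (0.988) and Dcn (0.981) were among those most like Hgf.

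The wider marker lists of the stellate cell, which include the genes above, moved unequally. Of 20 tested activation markers, 14 were higher and 1 was lower, with a median log2 fold change of 1.19 against -0.006 for all tested genes. With the genes described above left out, 12 of 17 were higher and 1 was lower (median 1.31). At an adjusted p under 0.05, edgeR called 0 of the 20 and DESeq2 called 14. Lox, a collagen crosslinking enzyme, Col3a1 (2.09), Fbn1, a microfibril protein (1.90), and Col1a2 (1.88) had the smallest p-values. Lox had 8, 5 and 12 counts in controls and 40, 193 and 91 counts in AAV8-TBG-Cre livers. It passed the count filter through the group where it was high, so no fold is given for it. Acta2, Tagln (0.35) and Myl9 (-0.33) were among those that did not pass the threshold. The 1 lower gene was Tpm2, a tropomyosin, at 14.6, 14.1 and 17.3 CPM in controls against 1.91, 6.65 and 4.04 CPM (log2 fold change -1.86, SE 0.38, adjusted p = 0.0619 from edgeR). Among the 5 livers other than AAV8-TBG-Cre replicate 2, 14 of 20 activation markers were higher and 1 lower.

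Of 15 tested quiescence markers, 3 were higher and 4 were lower, with a median log2 fold change of -0.10. The lower genes were Ecm1, an extracellular matrix protein (-1.07), Colec10, a collectin (-0.84), Vipr1, a receptor of vasoactive intestinal peptide (-0.81), and Hhip, which binds hedgehog ligands. Hhip had 30, 34 and 11 counts in controls and 2, 13 and 7 counts in AAV8-TBG-Cre livers. It passed the count filter through the controls, where it was high, so no fold is given for it. Adamtsl2 (1.10) and Ngfr (0.70) were among the higher genes. Ecm1 was 128, 152 and 87.9 CPM in controls and 45.0, 69.2 and 61.3 CPM in AAV8-TBG-Cre livers, without overlap. Lrat was 8.03, 12.5 and 6.39 CPM against 7.54, 10.1 and 4.96 CPM, with overlapping groups (log2 fold change -0.25, SE 0.32, adjusted p = 0.705 from edgeR). Leaving out AAV8-TBG-Cre replicate 2, 1 quiescence marker was higher and 4 were lower.

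**Figure D4:**
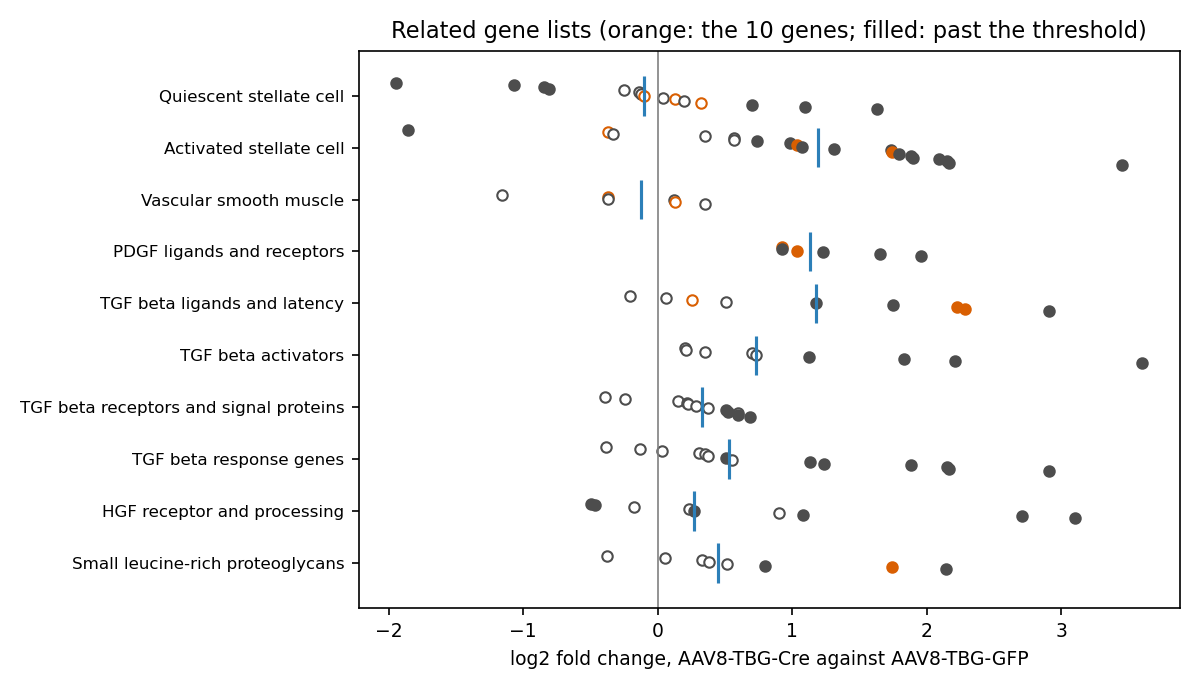
Log2 fold change of each tested gene in 10 related lists, AAV8-TBG-Cre against AAV8-TBG-GFP (n = 3 mice per group), with filled circles past the unadjusted threshold, orange for the 10 genes and blue lines for list medians. The activation list is centred at 1.19 and the quiescence list at -0.10, and all 6 PDGF genes lie above 0.

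In the PDGF, TGF beta, Reln and small proteoglycan lists that follow, edgeR called 0 genes at an adjusted p under 0.05 and DESeq2 called 0 to 6 per list. The PDGF system was higher throughout at the unadjusted threshold: 6 of 6 ligands and receptors, median log2 fold change 1.14. The ligand genes were Pdgfd, Pdgfb (1.65), Pdgfc (1.23) and Pdgfa (0.92). Pdgfd had 17, 13 and 9 counts in controls and 42, 93 and 41 counts in AAV8-TBG-Cre livers. It passed the count filter through the group where it was high, so no fold is given for it. Pdgfb, which encodes the ligand chain with high affinity for PDGFRB, was 2.19, 1.58 and 1.47 CPM in controls and 3.77, 7.89 and 4.81 CPM in AAV8-TBG-Cre livers. The groups did not overlap (SE 0.33, adjusted p = 0.0611 from edgeR). When AAV8-TBG-Cre replicate 2 was left out, 5 of 6 passed.

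Of 9 genes for TGF beta ligands and their latency proteins, 5 were higher and 0 lower (median 1.18): Tgfb2, Tgfb3, Ltbp2 (2.91), Ltbp3 (1.75) and Ltbp1 (1.18). The LTBP proteins are microfibril proteins of the matrix, several of which bind latent TGF beta. Ltbp2 was 1.68, 0.663 and 1.41 CPM in controls and 4.15, 17.4 and 6.64 CPM in AAV8-TBG-Cre livers. Of 9 tested activators, 4 were higher and 0 lower (median 0.73): Itgb6, an epithelial integrin subunit, Mmp2 (2.21), Thbs1 (1.83) and Thbs2 (1.13). Itgb6 had 1, 1 and 2 counts in controls and 13, 36 and 12 counts in AAV8-TBG-Cre livers, so it passed the count filter through the group where it was high, and no fold is given. When AAV8-TBG-Cre replicate 2 was left out, 4 of the 9 ligand and latency genes and 2 of the 9 activators were higher, and the latter count was also 2 without AAV8-TBG-GFP replicate 2.

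Receptors and signal proteins moved less. Of 12 tested, 4 were higher and 0 lower (median 0.33): Smad3 (0.68), Acvrl1 (0.60), the type I receptor gene Tgfbr1 (0.52) and the inhibitory Smad7 (0.51). Smad3 was 14.9, 15.1 and 16.4 CPM in controls and 19.6, 25.2 and 29.8 CPM in AAV8-TBG-Cre livers, without overlap. Of 14 genes that TGF beta is known to induce, 7 were higher and 0 lower (median 0.53). Timp1, Col1a1 (2.15) and Col1a2 were among the higher ones, as were Ltbp2, Ccn2 (1.23), Pmepa1 (1.13) and Smad7. Timp1 had 18, 8 and 11 counts in controls and 39, 99 and 55 counts in AAV8-TBG-Cre livers. It passed the count filter through the group where it was high, so no fold is given for it. With AAV8-TBG-Cre replicate 2 left out, 2 of the 12 receptor and signal genes and 5 of the 14 induced genes were higher. The former count was also 2 without AAV8-TBG-GFP replicate 1, and without AAV8-TBG-GFP replicate 3 it was 2 higher and 2 lower.

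Around Hgf, 4 of 9 receptor and processing genes were higher and 2 were lower (median 0.27). St14, which encodes the protease matriptase (3.11, adjusted p = 0.0396), and its inhibitor gene Spint1 passed the adjusted threshold of edgeR. Spint1 had 16, 9 and 10 counts in controls and 54, 153 and 61 counts in AAV8-TBG-Cre livers. It passed the count filter through the group where it was high, so no fold is given for it. The receptor gene Met was lower (-0.47), at 110, 132 and 96.9 CPM against 96.2, 72.1 and 76.2 CPM, as was Hgfac, the gene of the HGF activator (-0.49). These counts were 2 and 0 when AAV8-TBG-Cre replicate 2 was left out and 2 and 1 when AAV8-TBG-GFP replicate 1 was. The count of lower genes was also 0 lacking AAV8-TBG-GFP replicate 2 or AAV8-TBG-Cre replicate 3, and 1 lacking AAV8-TBG-GFP replicate 3. Around Reln, 1 of 3 tested genes was higher, the adaptor gene Dab1. This count was 0 when replicate 1 or 2 of the controls or replicate 2 or 3 of AAV8-TBG-Cre was left out. A fit lacking AAV8-TBG-Cre replicate 2 called 1 of the 3 lower. Dab1 had 8, 8 and 10 counts in controls and 12, 34 and 30 counts in AAV8-TBG-Cre livers. It too passed the count filter through the group where it was high, so no fold is given for it. Of 8 tested small leucine-rich proteoglycans, 3 were higher and 0 lower (median 0.45): Lum, Fmod (2.15) and Bgn (0.80). Leaving out AAV8-TBG-Cre replicate 2 gave 2 higher and 1 lower. Dcn, decorin, was 139, 134 and 95.6 CPM against 109, 229 and 144 CPM and did not pass (0.38, adjusted p = 0.481 from edgeR).

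Markers of other cell types moved with the genes that were higher. Of 9 tested cholangiocyte markers 9 were higher (median 2.39), and their summed level was 73.6 to 131 CPM in controls and 312 to 589 CPM in AAV8-TBG-Cre livers. Krt19 was 0.714 to 1.88 CPM against 4.10 to 10.4 CPM, and Epcam was at most 3.46 CPM against at least 8.02 CPM. Some of the 9 markers had few counts in controls and passed the count filter through the AAV8-TBG-Cre livers. Of 11 macrophage and Kupffer cell markers 8 were higher (median 0.68), with sums of 186 to 208 CPM against 273 to 400 CPM. Adgre1 was among them (0.60), as was the Kupffer cell gene Cd5l (0.71, adjusted p = 0.0471 from edgeR, the one gene of this list past the adjusted threshold). Of the other Kupffer cell markers, Vsig4 was higher (0.36), and the lectin gene Clec4f (0.29), Timd4 (0.29) and Marco (-0.75) did not pass. Vsig4, Timd4 and Marco were named after their values were seen. Of 12 markers of portal fibroblasts and mesothelium, which are other sources of matrix genes, 7 were higher (median 1.24), with sums of 62.2 to 127 CPM against 142 to 309 CPM. They included Eln, elastin (3.99, adjusted p = 0.0344 from edgeR), and Msln, mesothelin (at most 0.419 CPM in controls and 1.85 CPM in AAV8-TBG-Cre livers). Msln had 5, 5 and 8 counts in controls and 12, 45 and 22 counts in AAV8-TBG-Cre livers. It passed the count filter through the group where it was high, so no fold is given for it. The part of these cell types in the changes of Lum, the PDGF receptors and the TGF beta ligands was not tested.

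Of 6 tested smooth muscle markers, 0 were higher and 0 lower in edgeR (median -0.12), and 3 of the 6 were Acta2, Des and Tagln, already given above. Their sums were 23.9 to 46.4 CPM in controls and 22.0 to 44.9 CPM in AAV8-TBG-Cre livers. DESeq2 also called 0 of them at an adjusted p under 0.05, while edgeR called 1 lower without AAV8-TBG-Cre replicate 2 and 1 higher without AAV8-TBG-Cre replicate 1. Myh11, the defining smooth muscle myosin, was 7.78, 3.16 and 2.98 CPM against 0.859, 4.31 and 0.963 CPM, highest in the control and lowest in the AAV8-TBG-Cre liver that were also the extremes for Acta2. Of 10 endothelial markers, 0 were higher and 1 was lower (Stab2, -0.32), and Pecam1 did not pass (-0.30). Their median was -0.285, and 0 of the 10 had a positive log2 fold change. Without AAV8-TBG-GFP replicate 3, whose endothelial sum was the lowest of the 6 livers (182 CPM), 7 of the 10 were lower. Of 10 hepatocyte markers, 2 were higher and 1 was lower, and Alb did not pass (-0.19). With 1 library left out these hepatocyte counts ranged from 0 to 2 and, without AAV8-TBG-Cre replicate 1, reached 4 lower. The summed activation markers, without the genes described above, were 221 to 341 CPM in controls and 557 to 1147 CPM in AAV8-TBG-Cre livers, and the summed quiescence markers 180 to 282 CPM against 179 to 232 CPM.

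**Figure D5:**
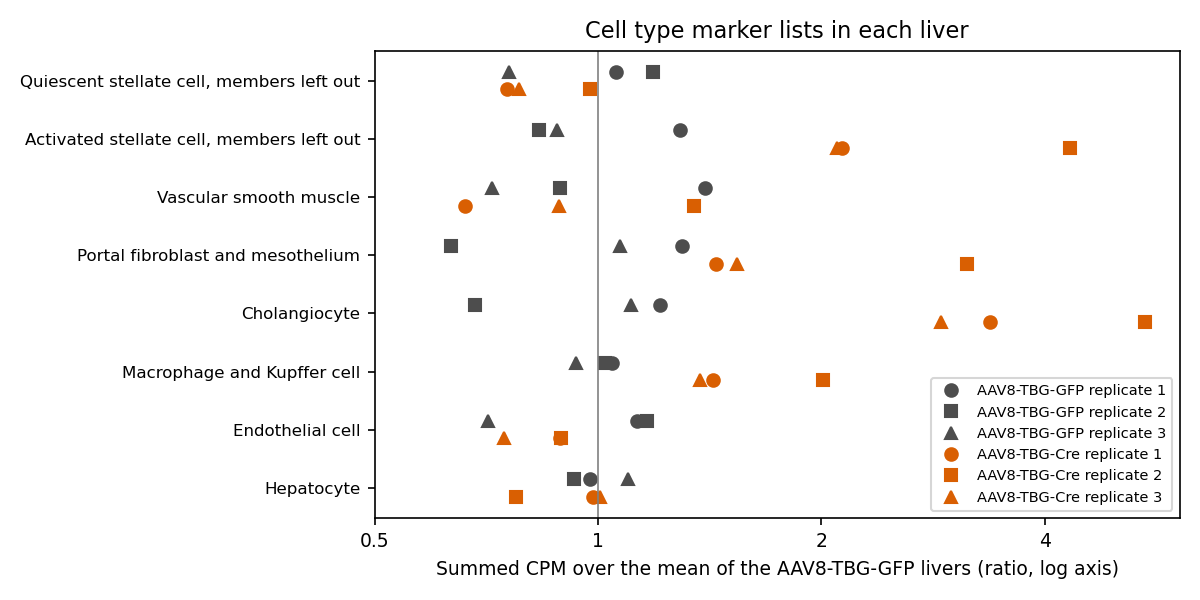
Summed CPM of 8 marker lists in each liver (both stellate cell lists without the genes described above), divided by the mean of the 3 AAV8-TBG-GFP livers (log axis), with 1 symbol per replicate. Activation, cholangiocyte, macrophage and portal fibroblast sums are higher in all 3 AAV8-TBG-Cre livers, with replicate 2 the highest, and quiescence, smooth muscle, endothelial and hepatocyte sums overlap between the groups.

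The library names in the labels have 2 forms, 2 digits (replicates 1 and 2 of the controls, replicate 1 of AAV8-TBG-Cre) and 4 digits (the other 3), and the labels do not say what the forms mark. Within the 2-digit and the 4-digit names, log2 ratios between group means were 1.67 and 2.64 for Tgfb2, 1.33 and 3.49 for Tgfb3, 1.03 and 2.15 for Lum, 0.59 and 1.47 for Pdgfrb, and 0.38 and 1.36 for Pdgfra, so these 5 genes kept their direction in both. Acta2 (-1.83 and 0.71), Reln (-0.53 and 0.56), Hgf (-0.30 and 0.86), Des (-0.14 and 0.57) and Tgfb1 (-0.087 and 0.67) changed sign between the forms. Each form holds 3 livers, with 1 liver in one of the groups, so these ratios carry no test.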

How the data were processed

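Bulk RNA-seq of 6 livers was grouped by the vector in the sample titles. The authors deposited expected counts per transcript (estimated fragments, not normalized) and FPKM per transcript and gene (scaled by transcript length and mapped fragments). The submitters' processing notes name HISAT2, Bowtie2, RSEM and mm10, whereas STAR, HTSeq and DESeq2 are given in the methods of the paper; versions are not given in the sources used here. RSEM-type estimates divide shared fragments, so near-identical transcripts and paralogs are uncertain.

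Expected counts were summed per NCBI gene ID and rounded. Genes were tested with edgeR 4.0.16 (R 4.3.3, TMM, filterByExpr, quasi-likelihood, vector as the only factor) and Benjamini-Hochberg adjustment. SE were derived from the quasi-F statistic. Replicates differed by more than sampling noise (chi-square per gene of 24.9 or more within a group), and they are described in the paper as separate mice. On simulated counts with 4-fold changes edgeR called 92.9% of 198 truly changed genes (13274 tested), and 6.6% of its calls were false, against 18.34% of those of DESeq2. Among unchanged genes, 4.81% had a p under 0.05 with edgeR and 4.52% with DESeq2. The simulation was run once with edgeR's dispersions. Alternatives were DESeq2 1.42.0, limma 3.58.1 with 1 or 0.1 added to the FPKM before log2, for genes reaching an FPKM of 0.5 in 3 or more libraries or for all genes, other normalizations and count filters, a replicate block, the library name form, a 1.5-fold threshold, and leaving out each mouse. Counts per list under such alternatives were added after the data were seen. Correlations used log2(CPM + 1), for genes with a mean log2 CPM of at least 1.

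The members, lists and tests were chosen with earlier results of these data known. Named are the 10 genes, Mettl14, in each list the genes past the adjusted threshold and the 4 smallest p-values, defining markers, and the 3 genes most like Acta2, Tgfb1, Hgf and Lum, except a few that are not reported here. Ltbp1, Vsig4, Timd4, Marco, Hhip, Adamtsl2, Ngfr, Tpm2, Myl9, Tagln, Pdgfc, Pmepa1, Ccn2 and Hgfac were named in their lists after their values were seen. Ccn2 is listed under an older symbol and was matched through RefSeq.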

Additional observations from a re-analysis of the deposited data

How the results depend on the processing

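The unadjusted calls of Tgfb2, Tgfb3, Lum and Pdgfrb were kept in each alternative that tested them, and that of Pdgfra in 15 of 16. With limma on log2(FPKM + 1), where the added 1 shrinks changes of low genes, the changes were 0.55 for Tgfb2 (without the filter), 0.965 for Tgfb3 and 0.542 for Pdgfra. Tgfb2 was not tested with at least 10 counts in every library or with filtered FPKM. At an adjusted p under 0.05, 4 of the 10 genes were called with DESeq2, 3 without a filter on low counts, and 0 to 4 with 1 library left out (4 without AAV8-TBG-Cre replicate 1). Over all genes, 125 were called by edgeR, against 1157 with DESeq2, 372 without a filter, 66 with upper quartile factors, 76 with at least 10 counts in every library, 214 with the library name form as a covariate, 22, 27 and 9 with limma (log2(FPKM + 1), log2(FPKM + 0.1) and no filter), and 0 (without AAV8-TBG-GFP replicate 2 or AAV8-TBG-Cre replicate 2) to 928 (without AAV8-TBG-Cre replicate 1) with 1 library left out. The cause was not tested. At an unadjusted p with a 1.5-fold threshold, 1699 of 2747 genes were called, and 5 of the 10. The replicate block called 7 genes over all, 0 of the 10 at an adjusted p and 5 at an unadjusted p. Replicate numbers did not pair the livers: deviations of log2 CPM from the group mean correlated at 0.009, -0.263 and 0.209 between same-numbered livers.

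Acta2 (-0.37) ranged from -0.93 to 0.30 with 1 library left out, and Des (0.13) from -0.04 to 0.28, with -0.021 without AAV8-TBG-Cre replicate 2. Reln (-0.10) ranged from -0.33 to 0.065 and was 0.012 with the library name form as a covariate and 0.07, 0.089 and 0.07 with limma. None of these passed a threshold. The share of higher among all unadjusted calls was 58.9% with TMM, 72.3% with upper quartile factors and 83.7% to 84.7% with limma, where the median of all genes moved to 0.112 with log2(FPKM + 1) and 0.138 with log2(FPKM + 0.1). Depth limits Tgfb2 and Tgfb3 most, with 9 to 37 counts in a control library.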
